A study of Mus musculus with 18 samples.

Results

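Messenger RNA of 10 genes of the inner nuclear membrane and the torsin system was followed in NIH 3T3 cells: Lbr, Tmpo, Lemd2, Lemd3, Ankle2, Banf1, Tor1a, Tor1aip1, Tor1aip2 and Tmem43. They were chosen by name, for the known place of their proteins, out of 22019 genes in the deposited table, and all 10 stood above the lowest value of the table in all 18 libraries. NIH 3T3, an established mouse line of embryonic fibroblasts, was used here as stable, puromycin-selected populations made with retroviruses, in which doxycycline turns on a construct. In SUN1L cells that construct is the lumenal part of SUN1, which competes for nesprins and so uncouples the nucleus from the cytoskeleton. In the control KDEL cells it is GFP held in the endoplasmic reticulum, and these cells had also been enriched by fluorescence sorting, a step not described for SUN1L cells. All cells received 1 μg/ml doxycycline and were kept for 48 hr on fibronectin-coated polyacrylamide gels. The 6 groups, with 3 libraries each, were KDEL on 1 kPa (libraries 4, 16 and 28), KDEL on 308 kPa (8, 20 and 32), SUN1L on 1 kPa (3, 15 and 27), SUN1L on 308 kPa (7, 19 and 31), KDEL on 308 kPa with 25 μM Y27, an inhibitor of ROCK (12, 24 and 36), and KDEL on 308 kPa with 10 μM blebbistatin, an inhibitor of myosin II (10, 22 and 34). Within a group, values follow the order of these library numbers. The label of library 34 names an empty vector in place of GFP-KDEL, and gives both Y27 and blebbistatin; it was used in the blebbistatin group.

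The inner nuclear membrane carries proteins that hold chromatin and the lamina at the edge of the nucleus. LBR binds B-type lamins and heterochromatin protein 1 and is also a sterol C14 reductase of cholesterol synthesis. Proteins with a LEM domain (LAP2, encoded by Tmpo, with LEMD2, LEMD3 and ANKLE2) bind barrier-to-autointegration factor, a small DNA-bridging protein encoded by Banf1, and take part in rebuilding the nuclear envelope after mitosis. TorsinA, the product of Tor1a, is an ATPase in the lumen of the nuclear envelope and endoplasmic reticulum that is active only with LAP1 (Tor1aip1) or LULL1 (Tor1aip2), and TMEM43, also called LUMA, is a membrane protein that binds lamins and emerin.

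Promoters are shown for the 3 genes whose highest library stood furthest above the lowest, since the results turn on them. They are the 120 bases before the annotated start of transcription in RefSeq (GRCm38.p6), for Lbr at chr1:181842402-181842521 on the minus strand, for the upstream start of Tmpo at chr10:91171620-91171739 on the minus strand, and for Tmem43 at chr6:91473587-91473706 on the plus strand. Capitals mark CCAAT boxes and, in Lbr, TTCAAA, which is the cell cycle homology word TTTGAA read on the other strand.
Lbr: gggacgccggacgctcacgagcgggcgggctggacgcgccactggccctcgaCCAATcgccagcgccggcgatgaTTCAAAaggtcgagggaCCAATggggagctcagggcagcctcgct
Tmpo: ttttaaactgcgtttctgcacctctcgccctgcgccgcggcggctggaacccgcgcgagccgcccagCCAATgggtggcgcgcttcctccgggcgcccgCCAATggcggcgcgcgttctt
Tmem43: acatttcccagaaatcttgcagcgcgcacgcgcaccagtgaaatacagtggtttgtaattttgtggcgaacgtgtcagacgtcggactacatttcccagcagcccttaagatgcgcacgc
The window searched ran from 250 bases before to 50 after each start, on both strands, for 4 motifs. These were E2F (TTTCCCGC or TTTGGCGC) and the sterol element TCACNCCA, the cell cycle homology region as TTTGAA and, in its other spelling, as TTCGAA. The last of them was the CCAAT box. RefSeq gave 16 such promoters for 9 of the 10 genes and none for Lemd2. The Lbr promoter held CCAAT at positions -68 and -28 and the cell cycle homology word at -45, counted back from the start. The upstream Tmpo promoter held CCAAT at -53 and -21, and the promoter of its other start held TTTCCCGC at -195 and TTTGAA at -28. Banf1 held TTTCCCGC at -81 and CCAAT at -185, Lemd3 CCAAT at -114, and both of the most downstream windows of Tor1aip2, which overlap, TTTGAA. No word of the 4 motifs lay in the windows of Tmem43, Tor1a, Ankle2 and Tor1aip1. Of all 32851 promoters of this length, 1.56% held the E2F words, 19.2% the cell cycle homology words, 37.4% a CCAAT box, 11.7% 2 or more CCAAT boxes, and 4.36% the sterol element. A match is a string of letters and not a measured binding site.

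Each value is a signal, the authors' normalized expression of a gene in a library on a linear scale with 1 as its floor. From the steps between low values, a library held an estimated 12670000 to 19460000 read pairs, and the lowest value of any of the 10 genes rested on about 295 to 444 read pairs, a counting error of up to 5.82%. The step taken as 1 read pair fitted loosely: in a library, 34.4% to 39.4% of low values were whole multiples of it. These read pairs and counting errors are therefore approximate. The 295 read pairs were those of Tor1a, whose spread within groups was 3.62% to 15.4% (coefficient of variation). Counting error there is thus of the size of the smaller spreads, whereas for Lbr and Tmpo it was at most 4.08% and 2.82%. In library 31 the lowest value, at 353 read pairs, was that of Lemd3. The targeted gene followed the labels: Sun1 lay between 38452 and 82617 in the 6 SUN1L libraries and between 2785 and 3799 in the 12 KDEL libraries, with no distinction between reads of the construct and of the endogenous gene. Fibroblast markers summed to 602070 to 979553, against 155 to 438 for leukocyte, 334 to 3979 for endothelial, 98.9 to 315 for epithelial, 191 to 486 for muscle and 15.3 to 133 for adipocyte markers, with Cd3e at the floor. Libraries 3, 7 and 8 stood apart: 20 of 20 G2/M genes and 16 of 16 S phase genes lay below every value of the other 15 libraries. Their summed G2/M signal was 10010 to 15278 against 71280 to 123168, and they belong to SUN1L on 1 kPa, SUN1L on 308 kPa and KDEL on 308 kPa. Bulk signal does not tell fewer expressing cells from less RNA per cell.

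Per kilobase of merged exons, Banf1 had the highest level and Lemd3 the lowest. Over the 18 libraries the signal per kilobase was 5746 ± 1266 (SD) for Banf1, which put it at percentile 98.3 of the tested genes. Next came Tmem43 with 1441 ± 302, Tmpo with 1209 ± 363, Lbr with 999.6 ± 315 and Lemd2 with 876 ± 137. The torsin cofactors followed, Tor1aip2 with 719 ± 78.1 and Tor1aip1 with 517 ± 53.4 per kilobase. Ankle2 had 484 ± 37.8, Tor1a 389 ± 34.5 and Lemd3 223 ± 28.3, the last at percentile 55.8. In this order, the ranges over the libraries did not touch between Banf1 and Tmem43 and between Tor1a and Lemd3, while those of every other pair of neighbours overlapped. The adaptor Banf1 was thus above the LEM domain genes whose products bind it in every library, and both cofactors were above Tor1a on average.

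**Figure D1:**
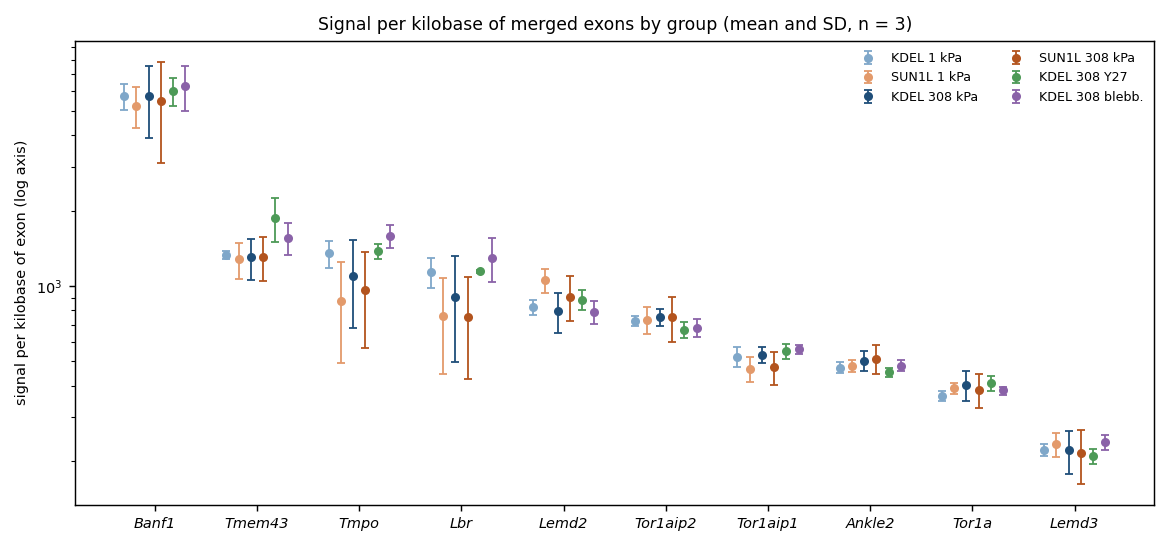
Signal per kilobase of merged exons (log axis) for the 10 genes in the 6 groups; points are group means and bars are the SD of 3 libraries. Banf1 lies at the top and Lemd3 at the bottom in every group, and the other 8 genes form a run of overlapping neighbours.

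The genes differed in how far they varied. The highest library was 4.05 times the lowest for Tmpo and 3.91 times for Lbr, 2.25 times for Tmem43 and 2.23 times for Banf1. It was 1.82 times for Lemd2, 1.65 times for Lemd3, 1.51 times for Tor1aip2, 1.47 times for Tor1aip1, 1.36 times for Tor1a and 1.35 times for Ankle2. Libraries 3, 7 and 8 were the lowest for Lbr (1402 to 1587 against 2907 to 5486 in the other 15), Tmpo (2929 to 4361 against 6888 to 11875) and Tmem43 (3772 to 4001 against 4759 to 8473). The other 7 genes overlapped between these 3 libraries and the rest, and none lay above. Among all tested genes, 12.9% lay below and 8.8% above in the same way. For Lbr, Tmpo and Tmem43, differences for SUN1L over both rigidities, for rigidity and for each inhibitor are also given without the 3 libraries.

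**Figure D2:**
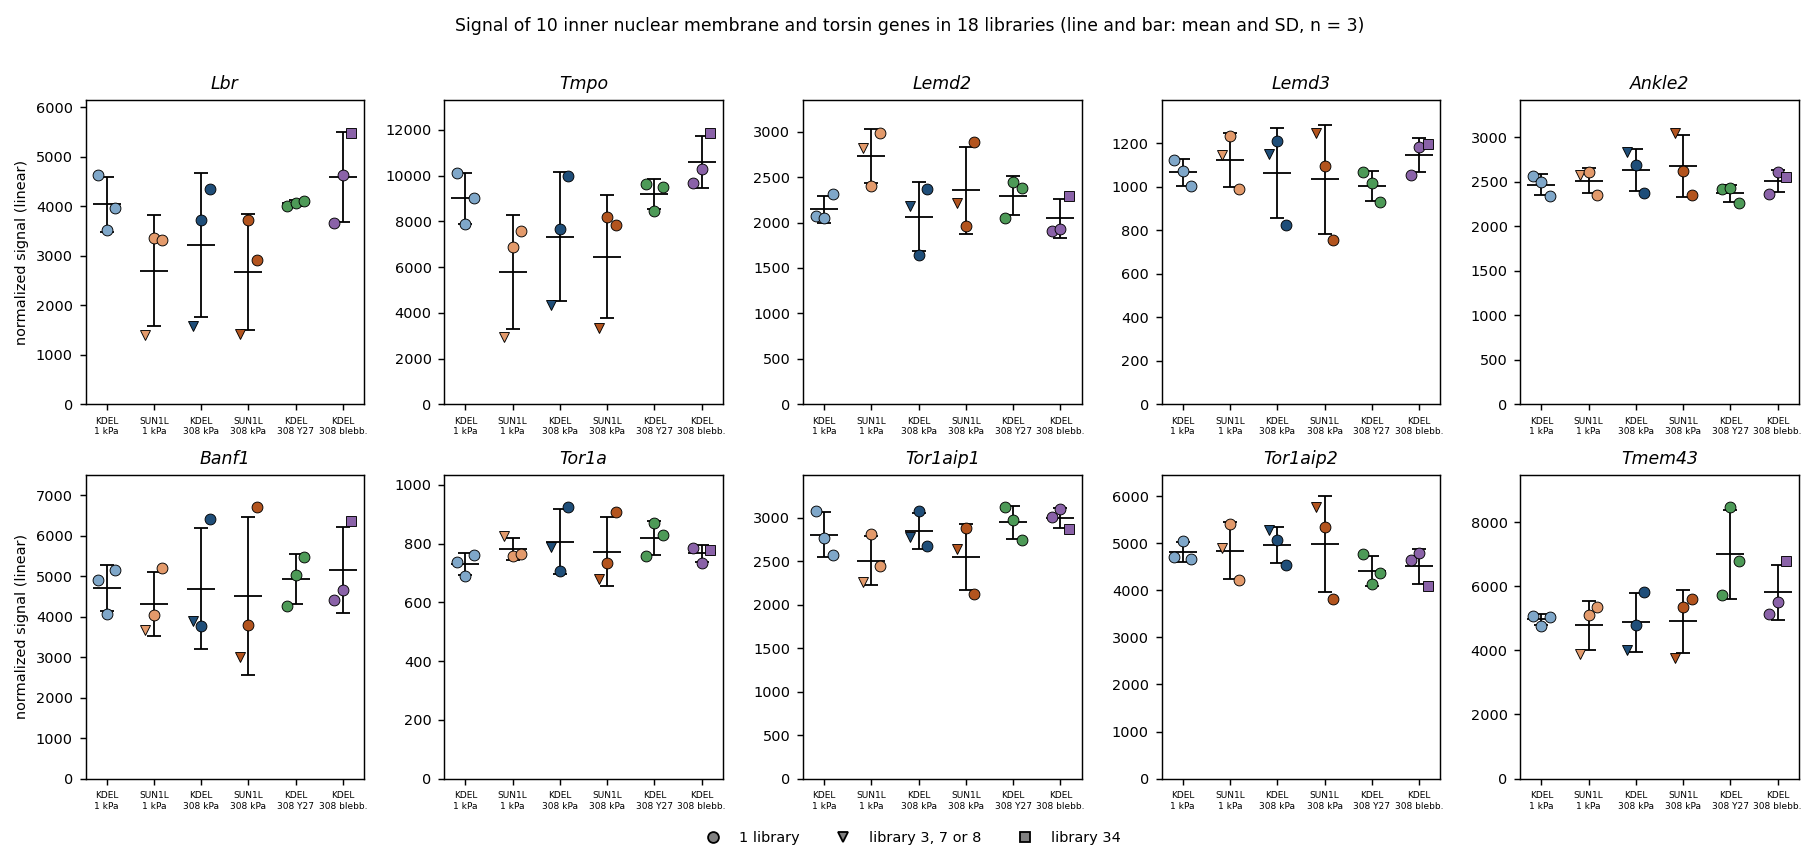
Signal of each of the 10 genes in every library of the 6 groups, with the mean and SD of 3 libraries; triangles are libraries 3, 7 and 8 and the square is library 34. Lbr, Tmpo and Tmem43 have their 3 lowest values in the triangles, whereas Tor1a and Ankle2 stay within 1.36 and 1.35 times from lowest to highest.

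LBR links lamin B and heterochromatin to the membrane; its gene lies at chr1:181815335-181843046 on the minus strand (ENSMUSG00000004880, GRCm38). The Lbr signal was 4636, 3518 and 3967 in KDEL cells on 1 kPa, 1587, 3729 and 4358 in KDEL cells on 308 kPa, 1402, 3357 and 3327 in SUN1L cells on 1 kPa, and 1412, 3727 and 2907 in SUN1L cells on 308 kPa. With Y27 it was 3999, 4067 and 4117, and with blebbistatin 3669, 4629 and 5486. On 1 kPa all SUN1L libraries lay below all KDEL libraries, with 3357 as the highest SUN1L and 3518 as the lowest KDEL value, and on 308 kPa the groups overlapped. The log2 difference of SUN1L from KDEL was -0.68 ± 0.47 (SE) on 1 kPa (limma, adjusted p = 0.93) and -0.25 ± 0.47 on 308 kPa (adjusted p = 1). Within the 3 runs of library numbers, each with 1 library per group, it was -1.72, -0.07 and -0.25 on 1 kPa. Over both rigidities it was -0.47 ± 0.33 (adjusted p = 0.879). Without libraries 3, 7 and 8 it was -0.26 on 1 kPa, -0.29 on 308 kPa and -0.28 ± 0.12 over both (adjusted p = 0.642). Libraries 3, 7 and 8 are all of the first run, and library 4 of that run, at 4636, stayed in this fit.

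LAP2, the product of Tmpo, exists as several isoforms that share a LEM domain; the gene lies at chr10:91147571-91171582 on the minus strand (ENSMUSG00000019961). The Tmpo signal was 10134, 7888 and 9010 in KDEL and 2929, 6888 and 7564 in SUN1L cells on 1 kPa, and 4361, 7680 and 9969 against 3355, 8183 and 7837 on 308 kPa. With Y27 it was 9636, 8440 and 9524, and with blebbistatin 9689, 10276 and 11875. The SUN1L values lay below all KDEL values on 1 kPa, and the groups overlapped on 308 kPa. The log2 difference was -0.75 ± 0.44 on 1 kPa (limma, adjusted p = 0.93), -0.21 ± 0.44 on 308 kPa (adjusted p = 1) and -0.48 ± 0.31 over both rigidities (adjusted p = 0.859). Leaving out libraries 3, 7 and 8, these were -0.31, -0.13 and -0.22. The 95% interval on 1 kPa, -1.72 to 0.23, includes a 2-fold decrease as well as no change.

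LEMD2 recruits the membrane-sealing protein CHMP7 to the reforming envelope; Lemd2 lies at chr17:27189601-27204438 on the minus strand (ENSMUSG00000044857). The Lemd2 signal was 2068, 2047 and 2315 in KDEL and 2814, 2406 and 2987 in SUN1L cells on 1 kPa, so that all 3 SUN1L libraries were higher. On 308 kPa it was 2184, 1640 and 2371 in KDEL and 2214, 1958 and 2888 in SUN1L cells, where the groups overlapped. The log2 difference was 0.35 ± 0.17 on 1 kPa (limma, adjusted p = 0.93), 0.19 ± 0.17 on 308 kPa (adjusted p = 1) and 0.27 ± 0.12 over both rigidities (unadjusted p = 0.0536, adjusted p = 0.735). SUN1L was higher in 3 of 3 runs on each rigidity, by 0.44, 0.23 and 0.37 on 1 kPa and by 0.02, 0.26 and 0.28 on 308 kPa. The labels state no pairing within these runs, and no share of all genes is given beside such counts of runs. The value over both rigidities without libraries 3, 7 and 8 was 0.30. Lemd2 had the smallest p of the 10 genes for SUN1L on 1 kPa and over both rigidities, and missed the threshold in each. Chmp7 differed by -0.01 ± 0.08 over both rigidities.

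**Figure D3:**
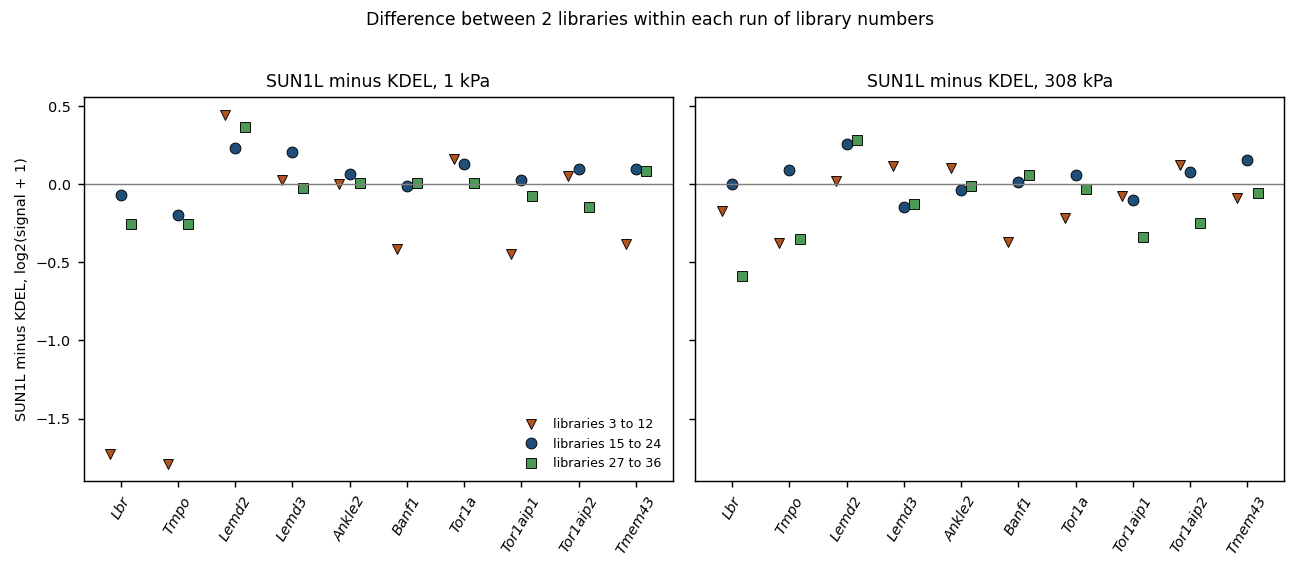
Log2 difference of SUN1L from KDEL cells for the 10 genes within each of the 3 runs of library numbers, on 1 kPa and 308 kPa. Lemd2 is above 0 in all 3 runs on both gels, and Lbr and Tmpo on 1 kPa are at -1.72 and -1.79 in the run that holds library 3 and between -0.07 and -0.25 in the other two.

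Of the 10 genes, 0 passed the call for SUN1L on 1 kPa, where 0.0874% of the 16021 tested genes did, 0 on 308 kPa (0.0624% of all genes) and 0 over both rigidities (0.181%). A call required a Benjamini-Hochberg adjusted p under 0.05 and a difference of at least 2-fold. On 1 kPa, SUN1L and KDEL did not overlap for 1 gene that was higher (Lemd2; 6.65% of all genes) and 2 that were lower (Lbr and Tmpo; 7.86%). On 308 kPa 0 of the 10 did so, against 1.95% of all genes for higher and 2.33% for lower values. At an unadjusted p under 0.05 the 10 genes gave 0 in each of the 3 comparisons, against 4.54% of all genes on 1 kPa, 2.53% on 308 kPa and 6.8% over both. In SUN1L cells 5 of the 10 genes were higher on 1 kPa, 3 on 308 kPa and 4 over both, while 48.5%, 42.8% and 45.4% of all genes were. The median log2 difference of the 10 genes was -0.03 on 1 kPa, -0.06 on 308 kPa and -0.02 over both, and that of all tested genes -0.01, -0.03 and -0.02. On 1 kPa the 95% intervals of 8 of the 10 genes lay inside 2-fold in either direction, the exceptions being Lbr and Tmpo.

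Banf1, Ankle2 and Lemd3 showed no difference that passed. Banf1, at chr19:5364641-5366645 (minus strand, ENSMUSG00000024844), had 4895, 4074 and 5154 in KDEL and 3675, 4043 and 5191 in SUN1L cells on 1 kPa, and 3891, 3757 and 6420 against 3006, 3788 and 6703 on 308 kPa. Its difference for SUN1L over both rigidities was -0.12 ± 0.21 (limma, adjusted p = 0.942). Libraries 31 and 32 gave its 2 highest values in these groups. In those libraries short genes stood above long ones by 0.64 and 0.31 in median log2 deviation, the 2 largest such gaps, and Banf1 has 820 bases of exons; the part of gene length in its spread was not tested. Vrk1, a kinase that releases BAF from DNA, differed by -0.46 ± 0.34 for SUN1L, and its lowest values were in libraries 3, 7 and 8.

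ANKLE2 helps to remove phosphate from BAF at the end of mitosis. Ankle2, at chr5:110231004-110256651 (plus strand, ENSMUSG00000029501), was 2565, 2500 and 2335 in KDEL and 2571, 2612 and 2349 in SUN1L cells on 1 kPa. Over both rigidities its difference was 0.02 ± 0.08, with a 95% interval of -0.16 to 0.21. LEMD3, also called MAN1, binds SMAD proteins. Lemd3, at chr10:120923413-120979332 (minus strand, ENSMUSG00000048661), was 1122, 1071 and 1002 in KDEL and 1146, 1235 and 988 in SUN1L cells on 1 kPa, and its difference over both rigidities was 0.01 ± 0.14 with an interval of -0.30 to 0.32. These intervals limit a SUN1L difference in either gene to well under 2-fold.

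The torsin genes showed small differences. Tor1a, at chr2:30960627-30967933 (minus strand, ENSMUSG00000026849), was 739, 689 and 761 in KDEL and 825, 756 and 765 in SUN1L cells on 1 kPa, and 788, 705 and 924 against 678, 733 and 906 on 308 kPa. Its difference for SUN1L was 0.02 ± 0.10 over both rigidities, with an interval of -0.21 to 0.24. Tor1aip1, which encodes LAP1 in the inner membrane, was 3080, 2767 and 2571 in KDEL and 2259, 2814 and 2446 in SUN1L cells on 1 kPa, and 2779, 3079 and 2680 against 2642, 2877 and 2125 on 308 kPa. It was lower in SUN1L cells in the 3 runs on 308 kPa, with log2 differences of -0.07, -0.10 and -0.33, and in 2 of 3 runs on 1 kPa, and the fitted value over both rigidities was -0.17 ± 0.10 (limma, unadjusted p = 0.116, adjusted p = 0.825). Tor1aip2, which encodes LULL1 of the endoplasmic reticulum, had 4712, 5055 and 4662 against 4897, 5418 and 4221 on 1 kPa and differed by -0.01 ± 0.11. The 2 cofactor genes are neighbours on chromosome 1 (Tor1aip1, chr1:156004599-156036480, minus strand, ENSMUSG00000026466; Tor1aip2, chr1:156035403-156068861, plus strand, ENSMUSG00000050565) and overlap by 1078 bases. Strand was not stated for the library kit, so reads in the overlap may be shared between them.

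For substrate rigidity 0 of the 10 genes passed, in KDEL cells, in SUN1L cells or over both constructs, and 0% of all genes were called in each of these comparisons by limma. At an unadjusted p under 0.05 the 10 genes also gave 0 in each, against 1.37%, 1.93% and 2.91% of all genes. On 308 kPa 4, 5 and 4 of the 10 were higher, while 47.7%, 47.2% and 45.8% of all genes were, and the median log2 difference of the 10 was -0.03, 0.01 and -0.02 against -0.01 for all genes in each. In KDEL cells the log2 difference of 308 from 1 kPa was -0.44 ± 0.47 for Lbr and -0.37 ± 0.44 for Tmpo (limma, adjusted p = 1 for both), and between -0.07 and 0.14 for the other 8 genes. Within the runs Lbr differed by -1.55, 0.08 and 0.14, the first being the run with library 8. The fitted difference without libraries 3, 7 and 8 was 0.01 for Lbr, -0.03 for Tmpo and 0.09 for Tmem43 in KDEL cells, and -0.02, 0.15 and 0.07 in SUN1L cells. In SUN1L cells Lemd2 differed by -0.23 ± 0.17 and was lower on 308 kPa in 3 of 3 runs, at -0.35, -0.30 and -0.05, and Tmpo differed by 0.17 ± 0.44. Between the rigidities 0 of the 10 were without overlap in either construct; 2.13% of all genes were higher and 2.65% lower in this sense in KDEL cells, and 1.69% and 3.08% in SUN1L cells. The difference between the constructs in their response to rigidity was also tested: it was 0.53 ± 0.62 for Tmpo, 0.43 ± 0.66 for Lbr and between -0.16 and 0.07 for the other 8 (limma, adjusted p = 1 for all 10, with 0% of all genes called). Leaving out libraries 3, 7 and 8, it was 0.18 for Tmpo and -0.03 for Lbr. At an unadjusted p under 0.05 it gave 0 of the 10 and 0.905% of all genes, and it was above 0 for 4 of the 10 and 49.3% of all genes.

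Tmem43 had the highest values with Y27. The gene lies at chr6:91473703-91488459 on the plus strand (ENSMUSG00000030095). Its signal in KDEL cells on 308 kPa was 4001, 4804 and 5826 without inhibitor, 5722, 8473 and 6791 with Y27 and 5149, 5525 and 6784 with blebbistatin. The lowest Y27 library lay just under the highest untreated one, so the groups overlapped. The log2 difference with Y27 was 0.52 ± 0.19, with a 95% interval of 0.07 to 0.96 (limma, unadjusted p = 0.0277, adjusted p = 0.783), and 3 of 3 runs were higher, by 0.52, 0.82 and 0.22. Tmem43 was the 1 gene of the 10 with an unadjusted p under 0.05 in this comparison, where 6.05% of all genes had one. Without libraries 3, 7 and 8 the difference was 0.38 ± 0.20 (adjusted p = 0.804). In KDEL cells on 1 kPa Tmem43 was 5086, 4759 and 5053, and SUN1L differed from KDEL by -0.03 ± 0.13 over both rigidities, and by 0.06 ± 0.08 when those libraries were left out.

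With blebbistatin, Tmem43 differed by 0.26 ± 0.19 (limma, adjusted p = 0.89), by 0.15 without library 34 and by 0.13 without libraries 3, 7 and 8. The 2 inhibitors act on the same pathway, Y27 upstream on ROCK and blebbistatin on myosin II itself, at different doses. Tmem43 differed between them by 0.26 ± 0.19 (interval -0.19 to 0.70, adjusted p = 1), so that neither a difference nor its absence was shown, and by 0.37 without library 34. Between the inhibitors 0 of the 10 genes and 0% of all genes were called, 0 of the 10 and 2.83% of all genes had an unadjusted p under 0.05, and 3 of the 10 and 50.6% of all genes were higher with Y27. Leaving out library 34, 4 of the 10 and 53.7% of all genes were higher with Y27. Tmem43 then lay lower with blebbistatin without overlap, at 5149 to 5525 against 5722 to 8473 with Y27. So did Lemd2, at 1907 to 1934 against 2047 to 2447, while Tmpo lay higher, at 9689 to 10276 against 8440 to 9636. With fewer blebbistatin libraries groups separate more easily, and no share of all genes is given beside these.

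Lbr and Tmpo were higher with both inhibitors in the fitted values, with the same untreated libraries in both comparisons. The log2 difference of Lbr was 0.46 ± 0.35 with Y27 and 0.62 ± 0.35 with blebbistatin, and that of Tmpo was 0.40 ± 0.27 and 0.61 ± 0.27 (limma, adjusted p = 0.85 for both with Y27 and 0.89 for both with blebbistatin). Library 8 was the low untreated library: in its run Lbr differed by 1.33 and 1.21, against 0.13 and -0.08 with Y27 and 0.31 and 0.33 with blebbistatin in the other two. Without libraries 3, 7 and 8 the differences were 0.01 and 0.17 for Lbr and 0.07 and 0.27 for Tmpo. Without library 34, those with blebbistatin were 0.48 ± 0.41 for Lbr and 0.52 ± 0.32 for Tmpo. Tmpo was lower with Y27 than with blebbistatin without overlap, by 9636 against 9689 at the nearest libraries, in a comparison where 4.24% of all genes were lower and 5.39% higher in this way, and its difference of -0.20 ± 0.27 did not pass (adjusted p = 1).

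The other genes moved little with the inhibitors. Ankle2 was lower with Y27 in 3 of 3 runs, with a difference of -0.15 ± 0.09, and Tor1aip2 in 3 of 3 runs with each inhibitor, with -0.17 ± 0.10 for Y27 and -0.14 ± 0.10 for blebbistatin. Tor1aip1 differed by 0.05 ± 0.08 and 0.08 ± 0.08, Tor1a by 0.03 ± 0.12 and -0.06 ± 0.12, and Lemd2 by 0.16 ± 0.15 and 0.00 ± 0.15. Banf1 differed by 0.11 ± 0.23 with Y27 and by 0.16 ± 0.23 with blebbistatin. Lemd3 differed by -0.06 ± 0.15 with Y27 and by 0.13 ± 0.15 with blebbistatin, and Ankle2 by -0.07 ± 0.09 with blebbistatin. Without library 34, Lemd3 was 1055 to 1183 with blebbistatin against 825 to 1211 untreated. Ankle2 was then 2365 to 2609 against 2369 to 2830, and each of these genes overlapped between the groups. Leaving out library 34, the differences with blebbistatin were -0.07 for Tor1aip2, 0.11 for Tor1aip1, -0.08 for Tor1a, -0.09 for Lemd2 and 0.00 for Banf1, with an adjusted p of 1 for each from limma. Of the 10 genes, 0 passed the call for either inhibitor, as for 0% of all genes, and 0 were without overlap against the untreated group, where 4.95% (higher) and 3.62% (lower) of all genes were so for Y27, and 3.66% and 3.55% for blebbistatin. At an unadjusted p under 0.05 blebbistatin gave 0 of the 10 and 4.21% of all genes. With Y27 7 of the 10 were higher and with blebbistatin 6, while 52.3% and 51.1% of all genes were. The median log2 difference of the 10 genes was 0.08 with Y27 and 0.10 with blebbistatin, against 0.01 and 0.00 for all genes. Leaving out library 34, 5 of the 10 and 49.6% of all genes were higher with blebbistatin, and the median of the 10 was 0.04.

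**Figure D4:**
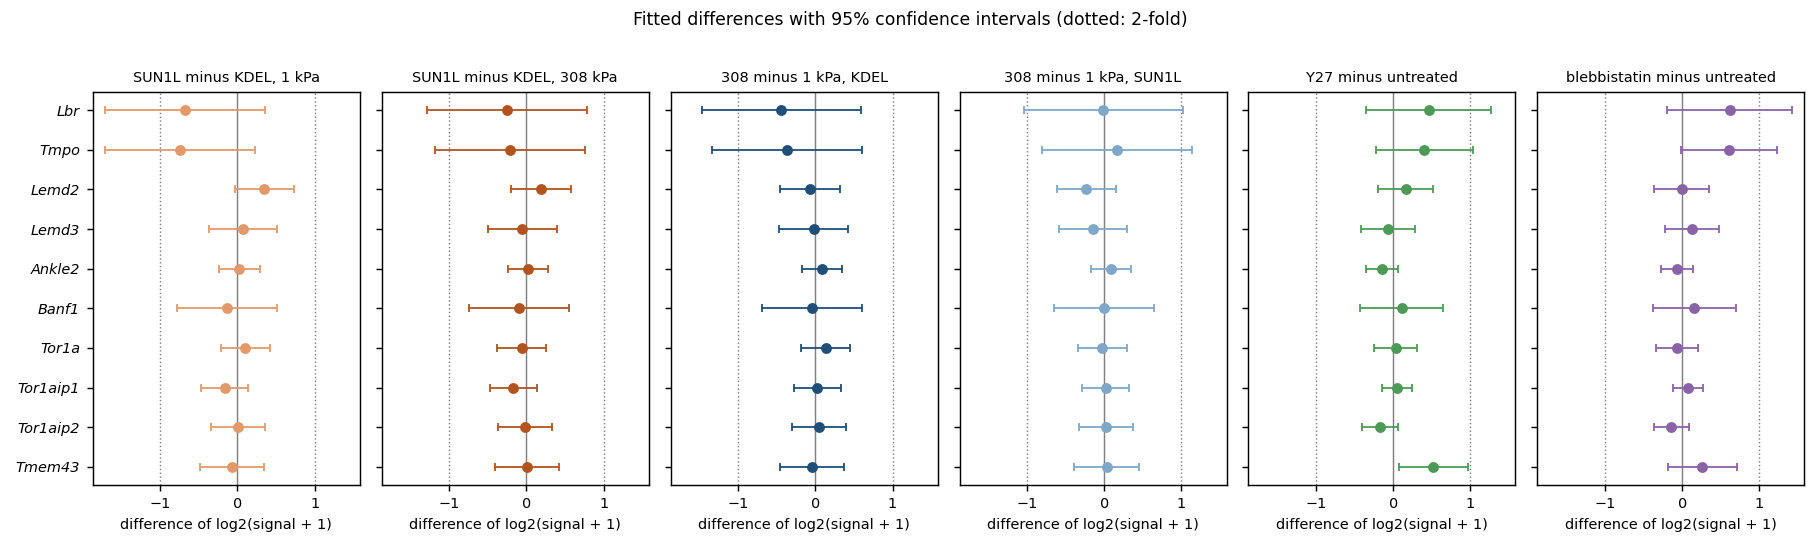
Log2 differences with 95% intervals from limma for the 10 genes in 6 comparisons; dotted lines mark 2-fold. The interval of Tmem43 with Y27, 0.07 to 0.96, is the 1 interval that leaves out 0, and the widest intervals are those of Lbr and Tmpo.

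Partners of these proteins were described from lists of 57 tested genes. For SUN1L against KDEL over both rigidities 1 of the 57 passed, Sun1 itself, which the construct carries (log2 difference 4.19 ± 0.17, limma, adjusted p = 1.61e-06). Of the 57, 15 were higher and 42 lower, while 45.4% of all genes were higher. These counts and those below include libraries 3 and 7, of SUN1L cells, and library 8, of KDEL cells. Counts of partners without these libraries are given for the sterol genes only. Among partners of LBR, 0 of 4 heterochromatin genes passed (1 higher, 3 lower, median -0.13), with Cbx5, for HP1 alpha, at -0.31 ± 0.25. Of 6 genes of the sterol pathway in which LBR works 0 passed and 6 were lower (median -0.62), and all 6 lay below the other libraries in libraries 3, 7 and 8, at a summed 6834 to 7376 against 24324 to 44023. For BAF, 0 of 6 kinases and phosphatases passed and 6 were lower (median -0.11). For LEMD3, 0 of 4 SMAD genes passed (2 higher, 2 lower), and for the envelope-sealing ESCRT genes 0 of 10 (3 higher, 7 lower, median -0.06). The remaining torsins gave 0 of 4 (0 higher, 4 lower, median -0.02), the remaining LEM domain genes 0 of 3 (1 higher, 2 lower) with emerin, Emd, at -0.07 ± 0.13, and the other inner nuclear membrane genes 0 of 6 (2 higher, 4 lower).

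Zmpste24, the protease that cuts prelamin A, was the 1 of the 57 that was lower in SUN1L on both rigidities without overlap, as for 0.836% of all genes. It was 6155, 6388 and 5977 in KDEL and 4624, 5370 and 4983 in SUN1L cells on 1 kPa, and 5735, 6173 and 5801 against 5261, 5609 and 4601 on 308 kPa. Its log2 difference was -0.25 ± 0.07 (limma, adjusted p = 0.486), and 0 of the 5 prelamin processing genes passed. Smad2 was without overlap higher on 308 kPa in both constructs, as for 0.193% of all genes, with a difference of 0.22 ± 0.07 (adjusted p = 1). With both inhibitors Nemp2, an inner nuclear membrane gene, was higher without overlap (1.28% of all genes): it was 147, 203 and 231 without, 321, 285 and 336 with Y27, and 312, 279 and 287 with blebbistatin. Chmp7 and Ist1, both of the ESCRT list, were lower without overlap with both inhibitors (1.13% of all genes), Chmp7 with log2 differences of -0.23 and -0.14. These 3 genes were also without overlap in blebbistatin when library 34 was left out. For Y27, 0 of the 57 passed and 33 were higher, and for blebbistatin 0 passed and 32 were higher, while 52.3% and 51.1% of all genes were. The 6 sterol genes were all higher with each inhibitor, with medians of 1.00 for Y27 and 0.80 for blebbistatin, of which 0 passed. Leaving out libraries 3, 7 and 8, 6 of 6 were higher with Y27 (0.21) and 5 of 6 with blebbistatin (0.16), and 6 of 6 were lower in SUN1L cells over both rigidities (-0.39).

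Division genes are given beside Lbr and Tmpo, since libraries 3, 7 and 8 set both apart; 0 of them passed in any comparison named here. For SUN1L over both rigidities 20 of 20 G2/M genes were lower (median -0.76) and 16 of 16 S phase genes (median -0.46), while 45.4% of all genes were higher. Leaving out libraries 3, 7 and 8, 20 of 20 G2/M genes (median -0.20) and 13 of 16 S phase genes (-0.07) were lower. For Y27 20 of 20 G2/M and 16 of 16 S phase genes were higher (0.85 and 0.53), against 52.3% of all genes. Leaving out those libraries, 2 of 20 and 3 of 16 were higher with Y27 (-0.13 and -0.08), so that these counts for Y27 rest on library 8. Such counts are not given here for blebbistatin. The part of division genes in the differences of Lbr and Tmpo was not tested.

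**Figure D5:**
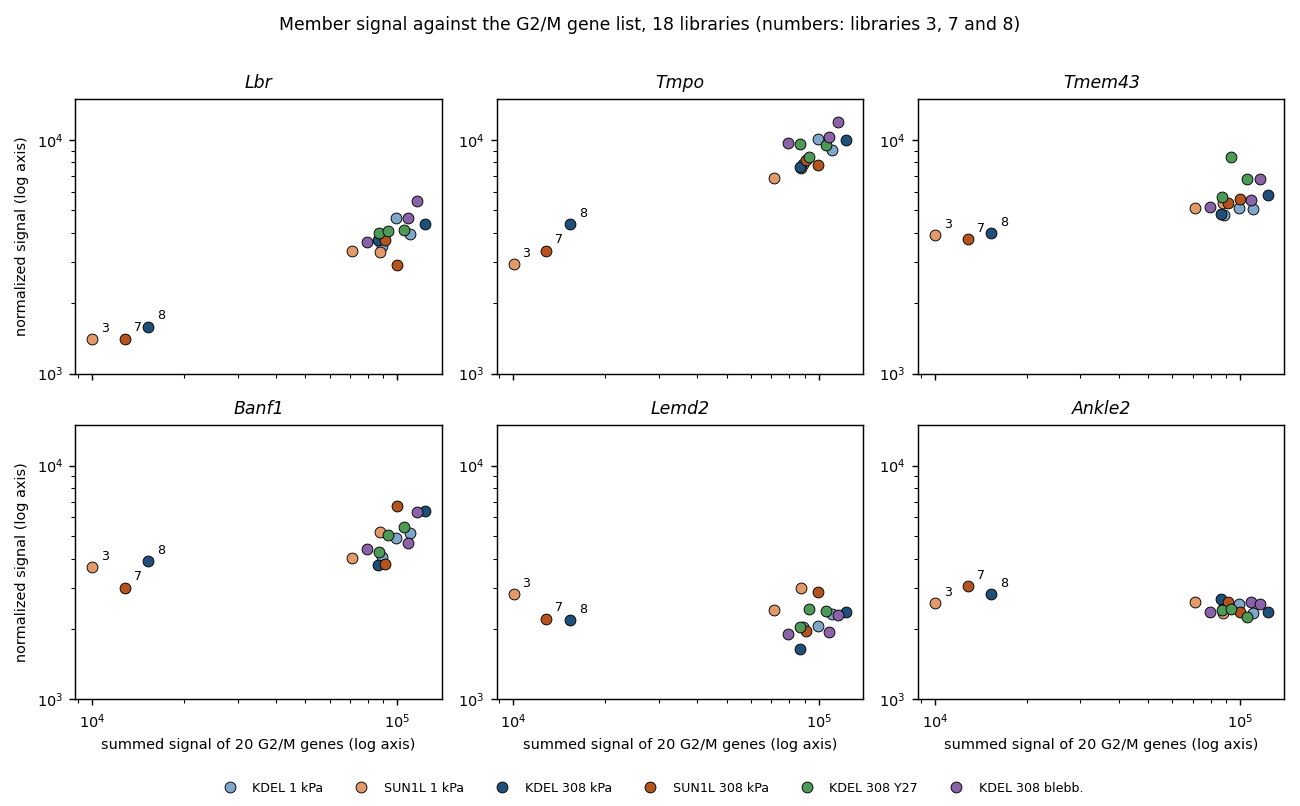
Signal of Lbr, Tmpo, Tmem43, Banf1, Lemd2 and Ankle2 against the summed signal of 20 G2/M genes in the 18 libraries (both axes log). Libraries 3, 7 and 8, at sums of 10010 to 15278, stand apart at the left and hold the lowest Lbr, Tmpo and Tmem43 signals.

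The genes whose levels followed each member most closely were found by Pearson's r of log2(signal + 1) over the 18 libraries, among 8010 genes at or above the median level. They are a description, since libraries share their depth and their skew between short and long genes. For Lbr they were Prkar2a (0.990), Ndc1 (0.987) and Tfrc (0.984), and without libraries 3, 7 and 8 these were at 0.918, 0.928 and 0.924. For Tmpo they were Usp1 (0.993), Rrm1 (0.992) and Fignl1 (0.985), at 0.966, 0.958 and 0.893 over the 15. For Banf1 they were Eif5a (0.989), Fkbp4 and Chchd4, and for Tmem43 Rab11fip5 (0.961), Timp2 and Emp1. For the LEM domain genes they were Atf6b (0.945), Rpl36 and Rps28 with Lemd2, Lrp12 (0.925), Ago2 and Rrm2b with Lemd3, and Scaf8 (0.917), Smg1 and Ylpm1 with Ankle2. For the torsin genes they were Eif3k (0.920), Cox4i1 and Gpx4 with Tor1a, Cpd (0.931) and Nedd4 with Tor1aip1, and Stam (0.953), Crot and Rsf1 with Tor1aip2. Among the 10 genes themselves, Lbr and Tmpo had the closest pattern, at 0.976 over 18 libraries and 0.864 over 15. Banf1 and Tor1aip2 ran opposite at -0.886 and -0.856, and Lemd2 and Tor1aip1 at -0.815 and -0.792, whereas Lbr and Tmem43 were at 0.757 over 18 and 0.378 over 15.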

How the data were processed

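Poly(A) RNA of 18 libraries was sequenced as paired ends with a NEBNext kit. Per the study's methods, the authors checked reads with FastQC, aligned them with TopHat2 (2.0 in the submitters' processing notes), used SAMtools, filtered low-quality, unpaired and duplicate reads in AvadisNGS, and deposited 1 signal per gene and library, normalized by the trimmed mean of M-values, on a linear scale whose floor is 1. The methods name mm9, but the positions deposited are those of GRCm38 and are printed as such. All sample columns were used. Library 34 was taken as blebbistatin by its characteristics, although its source label names Y27. Its deposited column is numbered 35, and the first heading of that column also names Y27. Both labels of the library name an empty vector.

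The signal is not a count, so log2(signal + 1) was tested with limma 3.58.1 (R 4.3.3), with a mean-dependent prior and two-sided tests. Tested were 16021 genes, those exceeding the floor in 3 or more of 18 libraries, 12 libraries entering the fit for construct and rigidity and 9 that for the inhibitors. A call required a Benjamini-Hochberg adjusted p under 0.05 over all tested genes and 2-fold. With 3 against 3, an exact permutation test cannot go below 0.1. The code was checked on simulated data. Intervals are 95% intervals of the fit. Lengths are merged exons of GENCODE vM1.

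Members, partner lists and markers were chosen with earlier results of these data known. Genes named are the 10 members, the 3 genes most like each by r (1 of those of Tor1aip1 is not reported here), list genes that passed or did not overlap in the same direction on both rigidities, in both constructs or with both inhibitors, and partners named by role. The methods state 3 biological replicates per condition, and the labels number none, so that no pairing was assumed. The alternatives were other pseudocounts, filters and scalings, another prior, all groups in 1 fit, a block on runs of library numbers and each library left out. Array weights and the fit without libraries 3, 7 and 8 were added after seeing the data.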

Additional observations from a re-analysis of the deposited data

How the results depend on the processing

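Under 29 alternatives, 18 of which leave out 1 library each, 0 of the 10 genes passed the adjusted p in any of the comparisons, and the lowest adjusted p of any of them was 0.135. The median log2 difference of the 10 genes moved beyond the spread between replicates in 2 of the comparisons when 1 library was left out: for Y27 it ran from 0.0146 without library 8 to 0.202 without library 32, and for SUN1L on 308 kPa from -0.102 without library 8 to 0.0872 without library 7. The difference of Tmem43 with Y27 ran from 0.37 without library 24 to 0.66 without library 32.

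With a replicate block on the runs of library numbers, which the labels do not state to be a pairing, Lemd2 for SUN1L over both rigidities had 0.27 ± 0.07 (limma, adjusted p = 0.135), Tmem43 with Y27 0.52 ± 0.13 (adjusted p = 0.379), and the block changed no call of the 10 genes. Counts of all genes called moved by over 1.5 times: for SUN1L on 1 kPa from 14 to between 1 and 55, on 308 kPa from 10 to between 2 and 13, and over both rigidities from 29 to between 10 and 58. Without libraries 3, 7 and 8 they were 7, 5 and 17. With 3 libraries per group, the 95% intervals of Lbr and Tmpo reach past 2-fold in most comparisons, while those of the other 8 genes stay inside it in each.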

Other observations

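Other genes of the nuclear envelope also had their lowest or highest values in libraries 3, 7 and 8. Lmnb1, for lamin B1, lay at 471 to 576 there against 2013 to 4447 in the other 15 libraries, and Ankle1, a LEM domain nuclease, at 45 to 79 against 496 to 965. Lmna, for lamins A and C, was at 12029 to 19321 against 20674 to 32321. Syne1, for nesprin-1, was higher, at 5283 to 7130 against 1953 to 3854. Of all tested genes 12.9% lay below and 8.8% above in the same way. Of the 9 lamin, SUN and nesprin genes 5 lay below and 2 above, of the 10 ESCRT genes 2 below and 1 above, and of the 4 remaining torsins and the 4 SMAD genes 0 in either direction.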
